A study of Mus musculus with 2 samples.

Results

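The E protein and Id genes were followed in chromatin accessibility of hematopoietic stem cells (HSCs) from young and aged mice. The set held 6 genes, of 21938 protein-coding genes counted in the same way. They were Tcf3, Tcf4 and Tcf12 for the E proteins and Id1, Id2 and Id3 for the Id proteins. The 6 were chosen by name, with no cut on a measured value, but with earlier results of these data known. Fragments were counted within 1000 bp of each annotated gene start, over each gene body, in peaks called here from the fragments of each library and merged, and in 500-bp bins of the 50-kb flanks. All 6 genes passed the minimum of 100 fragments over both libraries, at the promoter and over the gene body.

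The E proteins E2A (Tcf3), E2-2 (Tcf4) and HEB (Tcf12) are helix-loop-helix transcription factors that bind E-boxes, the sequence CANNTG, as dimers with each other or with a tissue-restricted partner such as TAL1 or LYL1. The Id proteins carry the helix-loop-helix but no basic DNA-binding region, so a dimer with an E protein does not bind DNA. The balance of both is known for its part in lymphoid commitment and in HSC maintenance, and the Id genes are known targets of BMP signalling through SMAD proteins.

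The series compared single-cell ATAC-seq, which records where the Tn5 transposase cuts open chromatin in single nuclei, of 1 library from 10-week-old and 1 library from 20-month-old C57BL/6 mice. Both libraries were sorted bone marrow cells gated as CD150+, c-kit+ and Sca-1+ and as Lin-, Flt3-, CD48-, IL-7- and CD34-, neither group carried an introduced allele or received an agent, and the study's methods describe female mice. The study describes pooled bone marrow of mice of each age for its bulk RNA-seq and ATAC-seq. Whether mice were pooled for these single-cell libraries, and how many were used, was not stated in the sources used here. With 1 library per group there was no replicate, so no test was made between ages, and all intervals cover counting error only.

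The young library gave 4887 cells and the aged library 3405 cells with 3000 to 20000 in-peak fragments, and 26 cell barcodes occurred in both. Levels are fragments per 1000000 in-peak fragments of a library (FPM), scaled to 34010849 young and 25656630 aged fragments. A log2 ratio is aged over young with 1 fragment added to each count. Fragments shorter than the DNA wrapped around a nucleosome made up 59.8% of the young and 55.0% of the aged library, and cells marked as doublets 4.42% and 6.73%. The HSC label was checked against promoters of marker genes. The 11 HSC markers had a median of 19.3 FPM in young and 22.1 FPM in aged cells, against 0.853 and 0.585 FPM for 7 T cell markers, 0.809 and 0.857 FPM for 8 granulocyte and monocyte markers, and 2.59 and 2.07 FPM for 7 B cell markers. The 6 erythroid markers lay at 4.13 and 3.84 FPM and the 6 megakaryocyte markers at 20.2 and 17.7 FPM, with no marker of the 6 lists at 0. Procr, a surface receptor of HSCs, had 14.8 and 17.2 FPM, while Cd3e, a subunit of the T cell receptor complex, had 0.853 and 0.585 FPM. Single markers overlapped between lists, so the check rests on medians. The T cell marker Thy1 had 13.1 and 11.7 FPM and the B cell marker Ebf1 13.8 and 15.4 FPM. The HSC marker Ly6a had 3.06 and 2.88 FPM. Mecom, a regulator of HSC self-renewal, stood at 0.529 and 0.546 FPM at its annotated gene start.

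Promoters of the E protein and Id genes differed little between ages. Of the 6, 1 promoter, that of Tcf4, passed the limit of 0.25 on the log2 scale, downwards and at the limit itself, where 4.89% of 15024 tested promoters lay below -0.25 and 10.9% above 0.25. None of the 6 lay above 0.25. The Tcf4 call was kept in 5 of 13 alternatives, while Id3 lay below -0.25 in 3 of 13 and Tcf3 in 1 of 13. The median log2 ratio of all tested promoters was -0.05. Tcf3, Tcf4 and Id3 lay below this median, and their intervals did not reach 0, while those of Tcf12, Id1 and Id2 did.

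**Figure D1:**
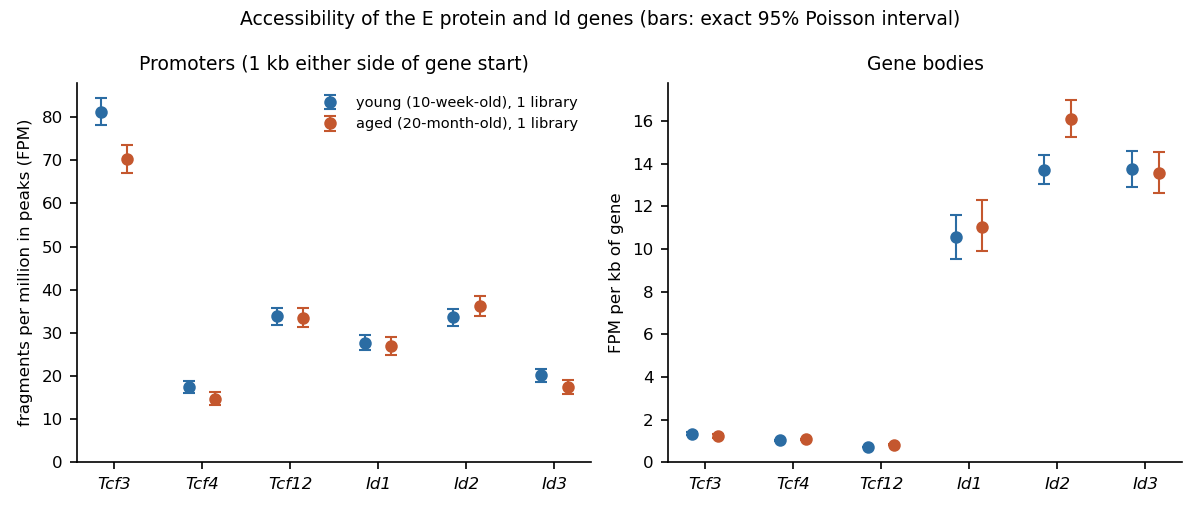
Accessibility of the 6 genes in the young and the aged library, with promoter FPM (left) and gene body FPM per kb (right) on linear axes from 0; points are single libraries and bars exact 95% Poisson intervals. Tcf3 had the most open promoter in both libraries, and the bars of the Id2 gene body, at 13.7 FPM per kb in young and 16.1 in aged cells, do not overlap.

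Tcf3, which encodes the E2A splice forms E12 and E47, lies on the minus strand at chr10:80409514-80433647. Its promoter held 2763 young and 1803 aged fragments, or 81.2 FPM (95% interval 78.2 to 84.3) and 70.3 FPM (67.1 to 73.6), a log2 ratio of -0.21 (-0.30 to -0.12). In the young library 98.0% of all protein-coding promoters had a lower level. The peak that spans the start, at chr10:80433506-80434325, had 74.1 and 64.7 FPM, with a log2 ratio of -0.19 (-0.29 to -0.11), close to the ratio of the window. The gene body had 1.35 FPM per kb in young and 1.22 in aged cells, with a log2 ratio of -0.14. The flanks of Tcf3, which take in most of that peak, had 429.9 and 386.0 FPM in sum and a log2 ratio of -0.16 (-0.19 to -0.12), against -0.02 for the flanks of all genes.

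Of 19 tested peaks at Tcf3, 1 lay above a log2 ratio of 0.5 and 3 below -0.5, where 15.9% of all 127230 tested peaks lay above and 8.32% below. The peak with the most fragments, at chr10:80398746-80400135, belongs to the start of Mbd3, a subunit of the NuRD complex, and had 97.2 and 85.2 FPM, with a log2 ratio of -0.19 (-0.27 to -0.11). The lowest ratio from 100 fragments was at chr10:80371296-80371935, near the start of Gm15123, which fell from 15.4 to 10.9 FPM, with a log2 ratio of -0.50 (-0.72 to -0.29). The other 2 peaks below -0.5 held 83 and 59 fragments, with log2 ratios of -1.02 and -0.63, and were picked out after their values were seen.

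The stretch of the Tcf3 promoter shown here is the part upstream of both the RefSeq and the GENCODE start, on the minus strand at chr10:80433648-80433885 of GRCm38.p6, because it belongs to the most open start region of the 6 genes. Beside it stands the distal element with the highest ratio at Tcf3, at chr10:80461371-80461570 on the plus strand, which rose from 2.06 FPM in young to 3.16 FPM in aged cells, a log2 ratio of 0.61 (0.14 to 1.10). Capitals mark E-boxes (CANNTG).
Tcf3 promoter: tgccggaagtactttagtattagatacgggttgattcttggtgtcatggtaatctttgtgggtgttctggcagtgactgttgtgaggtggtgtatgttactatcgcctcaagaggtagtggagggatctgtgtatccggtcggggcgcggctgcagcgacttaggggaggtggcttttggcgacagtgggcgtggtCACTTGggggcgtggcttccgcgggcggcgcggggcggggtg
Tcf3 element at -27824 bp: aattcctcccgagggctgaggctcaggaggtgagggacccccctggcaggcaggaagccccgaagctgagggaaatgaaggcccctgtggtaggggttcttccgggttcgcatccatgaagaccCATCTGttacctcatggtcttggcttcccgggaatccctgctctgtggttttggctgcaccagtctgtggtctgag
The promoter stretch of 238 bases held 1 E-box, CACTTG. An E-box on either strand was present in 66.2% of all 32851 RefSeq promoters over the 250 bases upstream of the start, and in 66.6% of 103986 distal peaks over their central 200 bases. The distal element held 1 E-box of the form CATCTG and 3 matches to TGTGGT, the core bound by RUNX factors, which 23.3% of distal peaks held at least once.

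Tcf12, which encodes HEB, lies on the minus strand at chr9:71842688-72111871. Its promoter was level between ages, with 1151 young and 861 aged fragments or 33.8 FPM (31.9 to 35.9) and 33.6 FPM (31.4 to 35.9), a log2 ratio of -0.01 (-0.14 to 0.12). The gene body, 269184 bp long, stood at 0.725 FPM per kb in young and 0.827 in aged cells. Its log2 ratio of 0.19 (0.14 to 0.24) was short of the limit of 0.25 that 11.4% of 17692 gene bodies passed upwards and 4.99% passed downwards, counted as below -0.25. None of the 6 gene bodies passed it in either direction.

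Peaks inside Tcf12 were more often above than below the limit for peaks. Of 39 tested peaks at Tcf12 with at least 50 fragments, 11 lay above a log2 ratio of 0.5 (28.2%) and 2 below -0.5 (5.13%), against the 15.9% and 8.32% of all tested peaks. Of the 33 peaks inside the gene, 10 lay above 0.5, and the median log2 ratio of the 33 was 0.29 against 0.01 over all tested peaks. Those 10 held from 56 to 225 fragments over both libraries. The background share varied with coverage. Of all 103986 tested distal peaks 17.5% lay above 0.5 and 9.52% below -0.5. Among the 49093 with at least 200 fragments the shares were 9.17% and 4.18%. No share matched for coverage was counted for the Tcf12 peaks. A peak of low level entered the merged list where it was high in either library. These shares are therefore descriptive, and their cause was not tested. An intronic peak at chr9:72023226-72023545 rose from 0.617 FPM in young to 1.83 FPM in aged cells, and its log2 ratio of 1.53 (0.80 to 2.39) was the highest at Tcf12, on 68 fragments in all. The better covered intronic peak at chr9:71986756-71987085 rose from 3.06 FPM to 4.72 FPM, with a log2 ratio of 0.62 (0.23 to 1.02). Lower in the aged library was the window at the group of 4 internal transcript starts centred 215784 bp into the gene, which held 7.82 FPM in young and 5.57 FPM in aged cells, a log2 ratio of -0.48 (-0.79 to -0.19). The peak at that group, chr9:71895876-71896695, had the lowest ratio from 100 fragments, -0.46 (-0.78 to -0.16), with 7.44 and 5.38 FPM. Both intronic peaks were picked out after their values were seen.

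**Figure D2:**
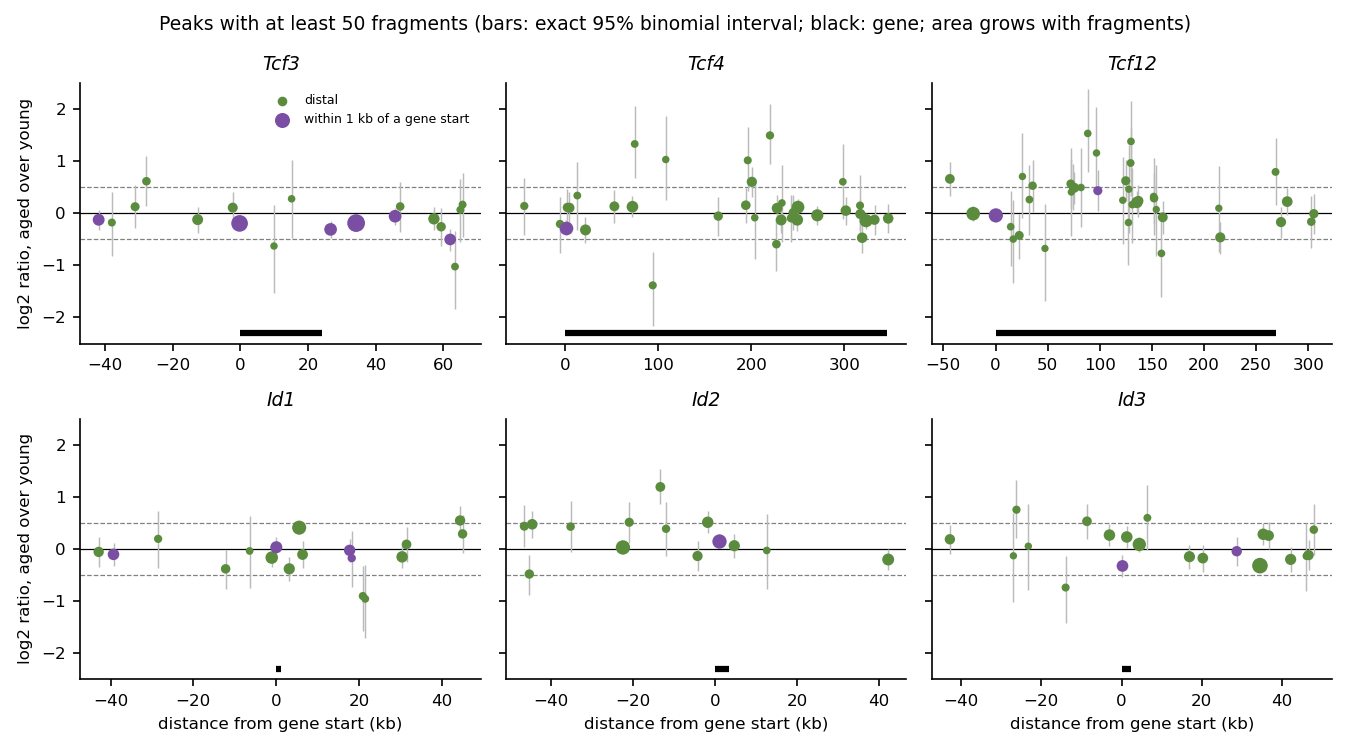
Log2 ratio (aged over young) of every peak with at least 50 fragments at the 6 genes against the distance of its centre from the gene start in kb; bars are exact 95% binomial intervals, the dashed lines mark 0.5 and -0.5, green points are distal peaks and purple ones lie within 1 kb of a gene start, point area grows with the fragments, and the black bar is the gene. Above the upper line lie 10 of 33 peaks inside Tcf12, 6 of 32 inside Tcf4, 3 of 14 at Id2, 3 of 21 at Id3, 1 of 18 at Id1 and 1 of 19 at Tcf3, where 15.9% of all peaks did. Peaks of low level entered the list where they were high in either library.

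The 2 peaks with the most fragments at Tcf12 differed little. The promoter peak at chr9:72110706-72112365 had 34.5 and 33.5 FPM, and the upstream element at chr9:72132716-72133835 had 28.5 and 28.3 FPM, with a log2 ratio of -0.01 (-0.15 to 0.13). Farther upstream, the element at chr9:72155176-72156075 rose from 4.26 FPM (145 fragments) in young to 6.74 FPM (173 fragments) in aged cells, a log2 ratio of 0.66 (0.33 to 0.99). It had the highest ratio among Tcf12 peaks with at least 100 fragments. Its central 200 bases, at chr9:72155526-72155725 on the plus strand, are shown with E-boxes in capitals.
Tcf12 element at -43755 bp: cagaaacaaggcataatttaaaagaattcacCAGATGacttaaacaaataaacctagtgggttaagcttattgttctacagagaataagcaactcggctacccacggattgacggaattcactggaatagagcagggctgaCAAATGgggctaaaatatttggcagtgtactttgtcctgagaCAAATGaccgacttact
This stretch is 40.0% G and C and holds 3 E-boxes, 1 CAGATG and 2 CAAATG. In the Tcf12 locus 28 of 37 tested distal peaks held an E-box, and their median log2 ratio was 0.22, against 0.41 for the 9 without one.

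Tcf4, which encodes E2-2, a factor best known for plasmacytoid dendritic cell and B lineage development, lies on the plus strand at chr18:69343356-69689079. The window at its annotated gene start held 595 young and 376 aged fragments, or 17.5 FPM (16.12 to 18.96) and 14.7 FPM (13.2 to 16.2), a log2 ratio of -0.25 (-0.45 to -0.07). The promoter peak of Tcf4 is centred 960 bp downstream of that start, at the border of this window. With 500 bp either side of the start, which leaves the promoter peak out, the ratio turned to 0.35 on few cut sites. That peak, at chr18:69344016-69344615, had 30.1 and 24.9 FPM, with a log2 ratio of -0.27 (-0.42 to -0.13). A second group of 11 transcript starts, centred 250070 bp into the gene, was equally open in both ages, at 34.0 and 34.1 FPM.

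Single elements inside Tcf4 lay past the limit for peaks on both sides. Of 35 tested peaks at the locus 6 lay above 0.5 (17.1%) and 2 below -0.5 (5.71%), near the 15.9% and 8.32% of all peaks, and all 8 were among the 32 inside the gene. The second most covered peak, in an intron at chr18:69666086-69666995, had 24.4 and 22.1 FPM, with a log2 ratio of -0.14 (-0.30 to 0.01). The highest ratio was at chr18:69563156-69563775 in an intron, at the group of 2 transcript starts centred 219815 bp into the gene, with 1.15 FPM in young and 3.27 FPM in aged cells, a log2 ratio of 1.49 (0.95 to 2.10). The lowest was at chr18:69437506-69437855, also intronic, where 82 young and 23 aged fragments gave 2.41 and 0.896 FPM, with a log2 ratio of -1.38 (-2.16 to -0.75). The whole gene body had 1.05 and 1.08 FPM per kb, with a log2 ratio of 0.05 (0.01 to 0.09). No sequence is shown for Tcf4.

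Among the inhibitors, Id2 had the higher aged values, with 10 of its 14 tested peaks at a log2 ratio above 0, where 65730 of all 127230 tested peaks were above 0. Id2, which is required for innate lymphoid and natural killer cells, lies on the minus strand at chr12:25093799-25097140. Its promoter window held 33.6 FPM (31.7 to 35.6) in young and 36.2 FPM (33.9 to 38.6) in aged cells, a log2 ratio of 0.11 (-0.02 to 0.24). A second start, of 2 transcripts, lies just past the border of this window, 1051 bp into the gene, and a window around it held 41.8 and 48.1 FPM, with a log2 ratio of 0.20 (0.09 to 0.31). The ratio of the annotated start was 0.30 with 500 bp and 0.28 with 2000 bp either side, both past 0.25. The gene body held 1559 young and 1380 aged fragments, or 13.7 and 16.1 FPM per kb, with a log2 ratio of 0.23 (0.13 to 0.34), and 87.5% of tested gene bodies had a lower ratio.

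The 50 kb upstream of Id2 also had higher aged values. Summed over its bins, the region stood at 143.0 FPM in young and 170.4 FPM in aged cells, a log2 ratio of 0.25 (0.19 to 0.31), while the 50 kb downstream stood at 54.4 and 54.7 FPM. Of 27 tested upstream bins 8 lay above a log2 ratio of 0.5 and 1 below -0.5, where 11.4% of 513619 tested flank bins of all genes lay above and 6.99% below. The 6 genes together had 25 of 216 bins above (11.6%) and 13 below (6.02%), both near the background, and 8 of the 25 lay upstream of Id2. The 3 E protein flanks together had 5 of 76 bins above and the 3 Id flanks 20 of 140.

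**Figure D3:**
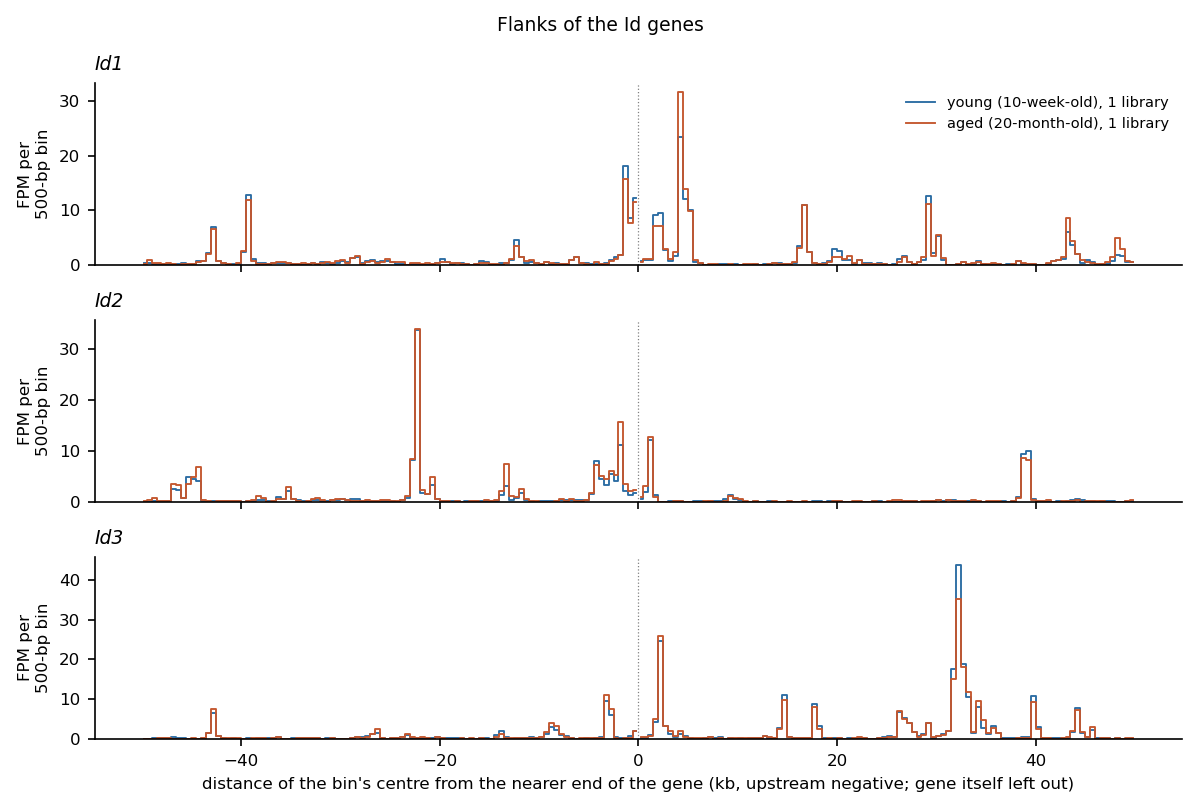
FPM per 500-bp bin in the 50-kb flanks of Id1, Id2 and Id3 by distance from the nearer end of the gene (kb, upstream negative), young in blue and aged in orange, 1 library each on linear axes from 0. Upstream of Id2 the aged line stands above the young line at several low elements while the tallest one, with 35.5 and 36.2 FPM over its peak, is level; at Id1 the tallest downstream element is higher in aged cells.

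The element of Id2 with the highest ratio lay at chr12:25110086-25110835, between genes. It had 120 young and 207 aged fragments, or 3.53 and 8.07 FPM, and its log2 ratio of 1.19 (0.86 to 1.53) was the largest among the Id peaks tested. The peak inside the gene, at chr12:25095996-25096505, had 33.7 and 37.5 FPM, with a log2 ratio of 0.15 (0.03 to 0.28). The most covered element, at chr12:25119246-25119915, was level at 35.5 and 36.2 FPM, with a log2 ratio of 0.03 (-0.10 to 0.15). The lowest ratio, -0.48 (-0.88 to -0.11), was at chr12:25142176-25142625, with 4.82 and 3.43 FPM. Of 14 tested peaks at Id2, 3 lay above 0.5 and 0 below -0.5, not far from the 15.9% and 8.32% of all peaks, and the median was 0.27.

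The central 200 bases of the element that rose and of the level one are set side by side, at chr12:25110361-25110560 and chr12:25119481-25119680 on the plus strand, with E-boxes and matches to TGAGTCA, the AP-1 core, in capitals on either strand.
Id2 element at -13321 bp: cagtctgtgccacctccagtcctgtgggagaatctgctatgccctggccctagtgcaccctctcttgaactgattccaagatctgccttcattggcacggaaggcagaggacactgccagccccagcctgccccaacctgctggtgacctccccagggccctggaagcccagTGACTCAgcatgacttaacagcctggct
Id2 element at -22441 bp: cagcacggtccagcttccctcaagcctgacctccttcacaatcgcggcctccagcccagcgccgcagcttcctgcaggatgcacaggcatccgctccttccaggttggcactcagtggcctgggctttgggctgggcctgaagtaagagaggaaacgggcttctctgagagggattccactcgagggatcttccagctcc
Neither stretch held an E-box. The element that rose held 1 AP-1 core, written TGACTCA on this strand, where 7.47% of distal peaks held one, and the level element held none. At Id2 6 of 13 tested distal peaks held an E-box and 2 held the AP-1 core. Both motifs are sequence matches, and binding was not measured.

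Id1, a direct target of BMP signalling, lies on the plus strand at chr2:152736251-152737410. The promoter was level, with 942 young and 691 aged fragments or 27.7 FPM (26.0 to 29.5) and 26.9 FPM (24.96 to 29.0), a log2 ratio of -0.04 (-0.18 to 0.10). The gene body was level too, at 10.5 and 11.1 FPM per kb. Around it the elements differed in sign. The most covered element, downstream at chr2:152741406-152742245, had 980 fragments in each library, or 28.8 and 38.2 FPM, with a log2 ratio of 0.41 (0.28 to 0.54), and a peak nearer the gene at chr2:152739216-152739635 had 12.4 and 9.47 FPM, with a log2 ratio of -0.38 (-0.62 to -0.15). The second of these was picked out after its values were seen. The upstream element at chr2:152735006-152735375 had 19.6 and 17.5 FPM, with a log2 ratio of -0.17 (-0.35 to 0.01).

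Past the nearest elements of Id1, 2 peaks in introns of Cox4i2 fell most. They had 2.38 and 1.94 FPM in young and 1.25 and 0.974 FPM in aged cells, with log2 ratios of -0.91 and -0.96, and the second was picked out after its values were seen. A peak in an untranslated exon of Bcl2l1, an anti-apoptotic gene, rose from 6.15 FPM to 8.96 FPM, with a log2 ratio of 0.54 (0.27 to 0.82). Of 18 tested peaks at Id1, this was the only one above 0.5, with 2 below -0.5, where 15.9% and 8.32% of all peaks lay past these limits.

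Id3, an inhibitor studied in B and T cell development, lies on the plus strand at chr4:136143497-136145755. Its promoter had 686 young and 448 aged fragments, or 20.2 FPM (18.7 to 21.7) and 17.5 FPM (15.9 to 19.2), a log2 ratio of -0.21 (-0.38 to -0.03). The first start and an internal start pointed in opposite directions. The peak at the first start, chr4:136143566-136143865, had 14.995 and 11.9 FPM, with a log2 ratio of -0.33 (-0.54 to -0.12), while the intronic peak at chr4:136144636-136144935 had 11.8 and 13.8 FPM, with a log2 ratio of 0.23 (0.02 to 0.44). Both peaks were picked out after their values were seen. Widening the promoter window to 2000 bp took in both and gave -0.03, and over the gene body the values were 13.7 and 13.5 FPM per kb.

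Distal sites of Id3 were led by a peak in an intron of E2f2, at chr4:136177556-136178415, with 57.3 FPM in young and 45.8 FPM in aged cells, a log2 ratio of -0.32 (-0.43 to -0.22), and by one at chr4:136147656-136148155 with 24.9 and 26.4 FPM. The highest ratio, 0.75 (0.21 to 1.31), belonged to chr4:136117066-136117515, which rose from 1.4995 FPM to 2.53 FPM. The lowest, -0.74 (-1.43 to -0.14), belonged to chr4:136129376-136129705, which fell from 2.06 to 1.21 FPM. Of 21 tested peaks 3 lay above 0.5 and 1 below -0.5, near the 15.9% and 8.32% of all peaks, with a median of 0.05.

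The 3 Id loci shared a sequence that none of the E protein loci held. Only an exact form of the BMP response element was searched, GGCGCC followed after 5 bases by GTCT on either strand. It occurred 447 times in the genome and in 93 of 164353 peaks (0.0566%). Within the genes and their 50-kb flanks it occurred 3 times at Id3, 2 times at Id2 and 1 time at Id1, and 0 times at Tcf3, Tcf4 and Tcf12. Of these 6 matches 5 lay in peaks, 1 in each of 5 peaks. In the central 200 bases of tested distal peaks it was found in 5 of 46 peaks at the Id genes (10.9%), against 24 of 103986 distal peaks overall (0.0231%). The motif was chosen from what is known of Id gene regulation, after the peaks had been seen. Its share at the Id loci therefore describes these loci and is no test of enrichment.

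The 5 matches in peaks are printed with 30 bases on each side, written on the strand of the match with the match in capitals. All 5 matches lie between genes or in the intron of Id3, at chr2:152739441-152739515 for Id1, chr12:25098824-25098898 for Id2, which is on the minus strand while the others are on the plus strand, and chr4:136140510-136140584, chr4:136144763-136144837 and chr4:136147951-136148025 for Id3. They are shown because the Id loci share them.
Id1 at 3227 bp: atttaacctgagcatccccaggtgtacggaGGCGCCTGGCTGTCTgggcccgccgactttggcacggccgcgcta
Id2 at -1721 bp: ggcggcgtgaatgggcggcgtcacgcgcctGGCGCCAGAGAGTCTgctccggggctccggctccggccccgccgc
Id3 at -2950 bp: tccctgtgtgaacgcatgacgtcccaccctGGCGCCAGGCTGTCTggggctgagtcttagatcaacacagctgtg
Id3 at 1303 bp: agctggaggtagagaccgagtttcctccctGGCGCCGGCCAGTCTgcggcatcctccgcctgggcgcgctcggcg
Id3 at 4491 bp: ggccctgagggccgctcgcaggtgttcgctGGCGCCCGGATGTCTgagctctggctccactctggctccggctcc
The peaks that held them, which were picked for the match after their values were seen, differed in sign. The Id2 peak at chr12:25098776-25099045 rose from 10.3 FPM to 14.7 FPM, with a log2 ratio of 0.51 (0.30 to 0.72). The 3 Id3 peaks had 11.5, 11.8 and 24.9 FPM in young and 13.8, 13.8 and 26.4 FPM in aged cells, with log2 ratios of 0.26, 0.23 and 0.08. The Id1 peak had 12.4 and 9.47 FPM, with a log2 ratio of -0.38. Over all 90 tested peaks with a match the median log2 ratio was -0.03. Of these 90, 10 lay above 0.5 and 1 below -0.5, where 15.9% and 8.32% of all tested peaks lay past these limits.

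The upstream element of Id1, at chr2:152735006-152735375, held GGCGCC without the spaced GTCT, and 1 match to TGACGTCA, the cyclic AMP response element, which 0.323% of distal peaks held. Other forms of the BMP response element were not searched, so the upstream element is not shown to lack one. Its central 200 bases at chr2:152735091-152735290 are shown with E-boxes and TGACGTCA in capitals, next to those of the most covered Id1 element, at chr2:152741726-152741925, and of the Id3 element with the highest ratio, at chr4:136117191-136117390, where capitals also mark the AP-1 core, all on the plus strand.
Id1 element at -1060 bp: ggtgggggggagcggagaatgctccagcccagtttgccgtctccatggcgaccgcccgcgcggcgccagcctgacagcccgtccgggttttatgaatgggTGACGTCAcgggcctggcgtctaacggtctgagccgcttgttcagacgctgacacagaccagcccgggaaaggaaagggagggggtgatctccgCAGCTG
Id1 element at 5575 bp: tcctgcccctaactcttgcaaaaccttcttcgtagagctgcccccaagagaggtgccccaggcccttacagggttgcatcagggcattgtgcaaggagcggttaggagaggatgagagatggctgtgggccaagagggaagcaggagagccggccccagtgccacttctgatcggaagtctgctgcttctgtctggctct
Id3 element at -26206 bp: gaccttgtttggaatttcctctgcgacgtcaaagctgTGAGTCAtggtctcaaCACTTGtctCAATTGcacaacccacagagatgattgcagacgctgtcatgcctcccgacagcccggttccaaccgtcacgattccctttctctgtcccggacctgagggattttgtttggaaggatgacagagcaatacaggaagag
The Id1 element at 5575 bp held neither an E-box nor an AP-1 core. The Id3 element held 2 E-boxes, CACTTG and CAATTG, and 1 AP-1 core. The Id3 element with the lowest ratio, -0.74, also held 1 AP-1 core. Over all 3 Id loci CAGCTG, an E-box form that E proteins bind, was found in 17 of 46 distal peaks (37.0%), against 11 of 84 at the E protein loci (13.1%) and 13.8% of all distal peaks. Of the other forms only CACCTG and CAGATG were counted at the Id loci. They differed less, with CACCTG in 19.6% against 13.5% and CAGATG in 13.0% against 15.5% of all distal peaks. Any E-box was found in 30 of the 46 (65.2%), near the 66.6% of all distal peaks. The median log2 ratio at the Id loci was -0.03 with CAGCTG and 0.08 without it.

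Over all 6 genes, 25 of 146 tested peaks lay above 0.5 (17.1%) and 10 below -0.5 (6.85%), close to the shares of all peaks given above. Scaling to all nuclear fragments in place of in-peak fragments changed this split to 20 above and 13 below. That scaling moves the ratio of every peak by -0.03, and the shares of all peaks under it were not counted. The E protein loci had 18 of 93 above and 7 below, and the Id loci 7 of 53 above and 3 below. The median was 0.10 over the E protein peaks and 0.03 over the Id peaks. Peaks were called in each library and merged, so a peak of low level entered the list where it was high.

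**Figure D4:**
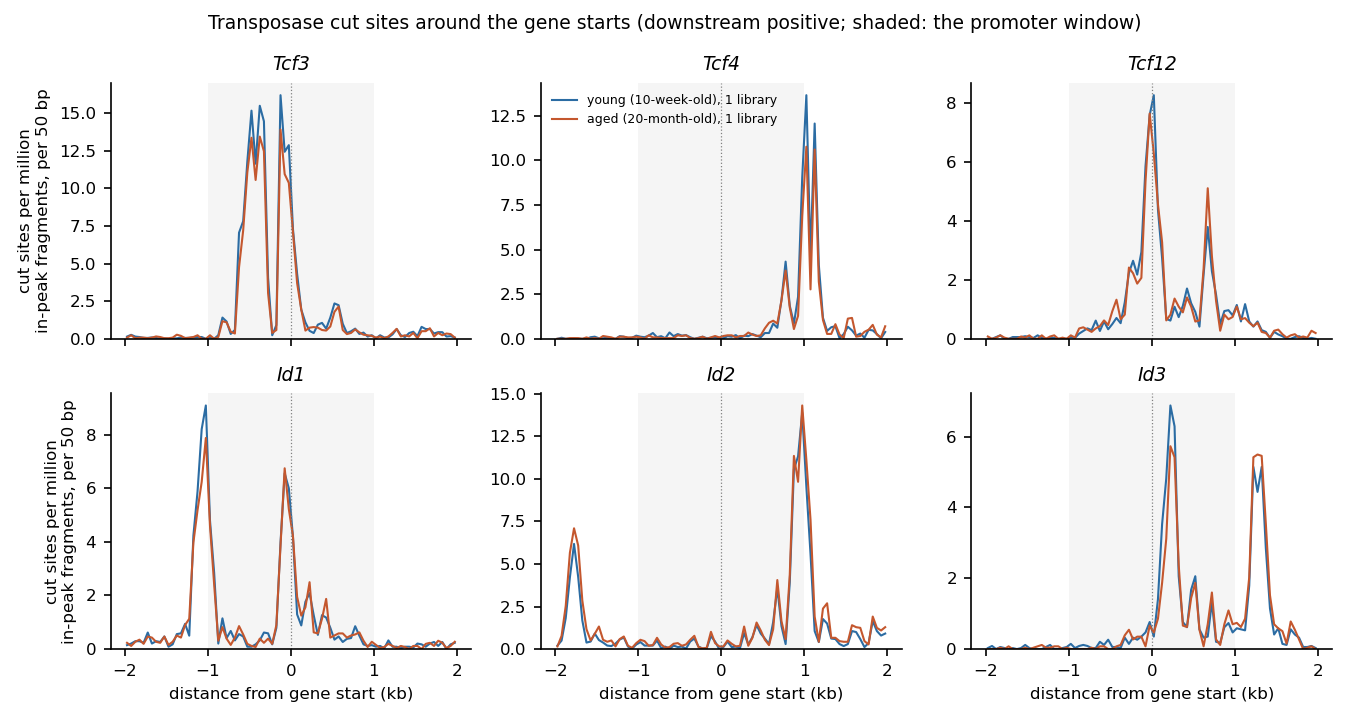
Transposase cut sites per 1000000 in-peak fragments in 50-bp steps from 2 kb upstream to 2 kb downstream of the annotated gene start, young in blue and aged in orange, 1 library each; the grey area is the promoter window of 1 kb either side and each panel has its own linear axis from 0. The main peaks of Tcf4 and Id2 sit near the downstream border of the window, and the first peak of Id3 is lower and its second peak higher in the aged library.

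The order of levels in the windows at the annotated gene starts was alike in both ages. In young cells Tcf3 led with 81.2 FPM, followed by Tcf12 with 33.8 and Id2 with 33.6, whose intervals overlapped, then Id1 with 27.7. Id3 and Tcf4 came last with 20.2 and 17.5 FPM, and their intervals also overlapped. In aged cells Id2 and Tcf12 changed places within overlapping intervals. Per kb of gene body the Id genes stood between 10.5 and 16.1 FPM and the E protein genes between 0.725 and 1.35 FPM. The Id genes are 1160 to 3342 bp long and the E protein genes 24134 to 345724 bp.

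Such short fragments, which come from nucleosome-free DNA, made up a smaller share of promoter fragments in the aged library at all 6 genes, though the interval of the difference reached 0 for each but Tcf4. Counted below 100 bp, the intervals of Id2 (-9.50 to -0.96 points) and Id3 (-12.5 to -0.71 points) did not reach 0 either. The share over all protein-coding promoters was 67.6% in young and 64.0% in aged cells, a difference of -3.65 points (95% Newcombe interval -3.69 to -3.61). At Tcf3 it was 73.3% and 71.4%, at Tcf12 65.0% and 63.0%, and at Id1 63.5% and 60.8%. At Id2 it was 69.6% and 65.7% and at Id3 62.8% and 57.1%. Tcf4 differed most, with 56.3% and 46.3%, a difference of -10.0 points (-16.4 to -3.57), and its interval reached the value of all promoters. Counted on short fragments alone, the promoter ratios were -0.16 for Tcf3, -0.45 for Tcf4, 0.03 for Tcf12, -0.01 for Id1, 0.11 for Id2 and -0.25 for Id3.

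In single cells the 6 promoters were each read by few fragments. Each cell was thinned to 3000 fragments in peaks and shallower cells were left out, so that 4776 young and 3260 aged cells entered. In these, 22.1% (20.9 to 23.3) of young and 18.9% (17.5 to 20.3) of aged cells held a fragment at the Tcf3 promoter. For Id2 the shares were 9.90% (9.07 to 10.8) and 10.5% (9.46 to 11.6), and for Tcf12 9.23% and 8.28%. For Id1 they were 8.25% and 7.64%, for Id3 5.84% and 4.75%, and for Tcf4 5.09% and 4.45%. Of 202 peak-free windows of the same width in the flanks, the median share was 0.188% in young and 0.184% in aged cells, and the highest 3.75% and 4.54%. The Tcf4 share in aged cells was not above the highest window, but the border of its promoter window cuts the Tcf4 promoter peak. Unthinned, Tcf3 was read in 42.7% and 40.2% of cells and Id2 in 20.4% and 23.1%. Without thinning the order of the ages turned for Tcf12, with 20.7% and 21.4%, and for Id1, with 17.2% and 17.9%, so no direction is read for either. The variance of the fragment number per thinned cell was 0.98 to 1.05 times its mean at these promoters, near the 1 of Poisson counts, and cells open and closed at one of these promoters could not be told apart.

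Beyond the 6 genes, 5 lists of related genes were read at their promoters. Of the 13 tested hematopoietic partners of E proteins 1 lay above 0.25 and 0 below -0.25, near the 10.9% and 4.89% of all tested promoters, with a median log2 ratio of -0.07. Lmo2, the bridging protein of the TAL1 complex, rose from 4.91 FPM to 6.90 FPM, with a log2 ratio of 0.49 (0.18 to 0.80), but stood at -0.11 over its gene body. Gata2 followed at 0.21 (0.04 to 0.37). At the low end were Cbfa2t3, a corepressor of that complex, at -0.20 (-0.32 to -0.07) and Lyl1, a partner related to TAL1, at -0.16 (-0.25 to -0.08).

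Tissue-restricted bHLH partners, the muscle, neural and gland factors that pair with E proteins outside blood, were counted next. Of 17 tested promoters 11 lay above 0.25 and 0 below -0.25, and the median log2 ratio was 0.32, against 10.9% of all tested promoters above 0.25 and a median of -0.05. These promoters were of low level, with a list median of 6.45 FPM in young and 8.15 FPM in aged cells, where the median of all promoters was 14.6 and 15.4 FPM. Myod1, the muscle determination factor, rose from 1.85 FPM to 2.77 FPM, with a log2 ratio of 0.58 (0.07 to 1.09), and Ptf1a, a pancreas and cerebellum factor, from 3.70 to 5.22 FPM, with a ratio of 0.49 (0.13 to 0.86). Ascl2 and Bhlha15 had the lowest ratios, -0.12 and -0.06, with gene body ratios of the opposite sign, 0.06 and 0.39.

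**Figure D5:**
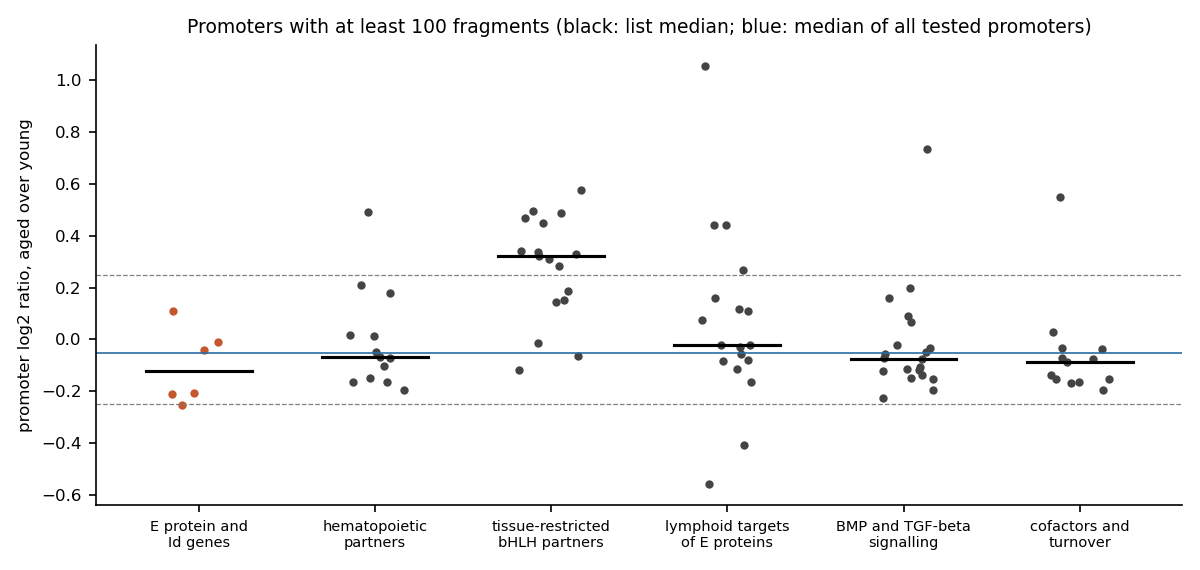
Log2 ratio (aged over young) of promoters with at least 100 fragments for the 6 genes (orange) and 5 lists of related genes (grey); each point is a gene, black lines are list medians, the blue line is the median of all tested promoters at -0.05, and dashed lines mark 0.25 and -0.25. The tissue-restricted partners lie highest with a median of 0.32, and the other lists lie near the blue line with single genes apart.

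Of 18 tested lymphoid targets of E proteins, 4 lay above 0.25 and 2 below -0.25, with a median of -0.02, where 10.9% and 4.89% of all tested promoters lay past these limits. Socs3, a feedback inhibitor of cytokine signalling, rose from 45.2 FPM to 61.4 FPM, with a log2 ratio of 0.44 (0.34 to 0.54). Flt3, the receptor of lymphoid-primed progenitors against which the cells were sorted, fell from 34.4 to 26.0 FPM, with a ratio of -0.41 (-0.55 to -0.27), and Il7r, the receptor of early lymphoid cells, from 2.32 to 1.56 FPM, with a ratio of -0.56 (-1.16 to -0.01). The Il7r promoter rested on 79 and 40 fragments, and the gene body ratio had the opposite sign, at 0.19.

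Genes upstream of the Id genes and cofactors of both families stayed near the median of all promoters. Of 20 BMP and TGF-beta signalling genes 1 lay above 0.25 and 0 below -0.25, against 10.9% and 4.89% of all tested promoters, with a median of -0.07. That 1 was Bmpr1a, a type I BMP receptor, which rose from 18.5 FPM to 30.8 FPM, with a log2 ratio of 0.74 (0.58 to 0.89), and stood at 1.003 over its gene body. Smad9 had the next highest ratio, 0.20, and Smad5 and Smad6 the lowest, -0.23 and -0.19. Of 13 cofactor and turnover genes 1 lay above 0.25 and 0 below -0.25, against the same shares, with a median of -0.09. It was Runx1t1, a corepressor that binds E proteins, which rose from 16.1 FPM to 23.6 FPM, with a ratio of 0.55 (0.38 to 0.72), and Kat2b followed at 0.03. Cbfa2t3 and Crebbp were lowest, at -0.20 and -0.17.

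E-boxes, the sites that E proteins bind, were then read over all 103986 tested distal peaks. Peaks with an E-box in the central 200 bases had a median log2 ratio of 0.027 and those without 0.044. Among the 10 forms, CAGATG, which reads CATCTG on the other strand, had the lowest median, -0.0005, with 15.8% of 16105 peaks above 0.5 and 11.6% below -0.5, against 17.5% and 9.52% of all distal peaks. CAGCTG followed with 0.011, and 15.8% above and 10.7% below, but CACATG was lower than CAGCTG in the middle tertile of GC content, at 0.016 against 0.018, and CACGTG was lower in peaks of at least 200 fragments. The highest median was that of CAATTG, 0.057, with 18.8% above and 8.18% below, but in the middle tertile of GC content its median was 0.023, below the 0.028 of all distal peaks there. CAGATG stayed lowest within the central 100 bases, in peaks of at least 200 fragments and in the middle tertile of GC content, at -0.041, -0.029 and -0.037 relative to the median of all distal peaks of that setting. Peaks share cells, depth and base composition and are not replicates, so these are descriptions of a pair of libraries.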

How the data were processed

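Single-cell ATAC-seq of 2 libraries was analysed, 1 per age. Per the labels and the study's methods, the authors aligned reads to mm10 and called cells with Cell Ranger ATAC and analysed them with Signac. The deposited files used here hold the fragments of each barcode with read counts, and per-barcode counts, as raw counts with no normalization. Barcodes called as cells with 3000 to 20000 in-peak fragments were kept, 4887 young and 3405 aged, with medians of 9890 and 11020 fragments per cell. The 6 genes and the lists were chosen with earlier results of these data known, as were all motifs.

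Fragments were counted at gene starts (GENCODE M21), over gene bodies, in flank bins and in 164353 merged peaks, which were called here, and scaled per 1000000 in-peak fragments. Intervals are exact Poisson for levels and exact binomial for ratios and shares. They cover counting error only. Features needed 100 fragments (promoters, bodies) or 50 (peaks, bins), and counted as past the limit at a log2 ratio of 0.25 or 0.5. All 6 genes are described. Of peaks, the 2 with most fragments and those with the highest and lowest ratio from 100 fragments were named, and of each list the 2 highest and 2 lowest promoter ratios. Others named are stated as such. A result among the listed genes is not reported here. No gene was named for a like pattern. Doublets were marked, not removed, from sites covered by 3 or more fragments. The alternatives were other windows, scalings, minimums, limits, fragment lengths and thinned cells. Scripts were tested on simulated data and used Python 3.11.15, numpy 2.4.6, scipy 1.17.1, pandas 2.3.3 and pysam 0.24.0. Promoter sequences are from RefSeq (GRCm38.p6), which had 1 entry each for Tcf3, Id2 and Id3, 3 for Tcf12 and 0 for Id1.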

Additional observations from a re-analysis of the deposited data

How the results depend on the processing

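No paired analysis was possible because each age had 1 library and nothing ties cells of one to the other, and leaving out a replicate was impossible for the same reason. Of 242 alternative values 204 stayed close to the reported one, 37 moved and 1 reversed, and the cause was not tested. The 242 leave out the alternatives of the 10 single E-box forms. With these forms included, E-box peaks had 36 alternatives, of which 29 stayed close and 7 moved. A promoter or gene body ratio counted as close while it lay inside the counting interval of the reported ratio, even where its sign changed. Over the alternatives 3 promoter ratios of Tcf12 and 1 of Id1, and 2 gene body ratios of Id1 and 5 of Id3, had the opposite sign. The promoter ratio of Tcf4 reversed to 0.35 with 500 bp either side, a window of few cut sites that leaves out the promoter peak. It was -0.0060 at the most covered start of Tcf4. Id2 was 0.30 with 500 bp and 0.28 with 2000 bp, Id3 was -0.033 with 2000 bp, and Tcf12 was -0.15 in thinned cells. Gene body ratios of Tcf4 and Tcf12 were 0.10 and 0.24 when scaled to promoters and 0.0074 and 0.11 on short fragments, and Tcf3 was -0.38 in thinned cells. Without the first 1000 bp, Id1 was -0.37, Id2 0.40 and Id3 0.26. Flank bins of the 6 genes above and below the limit numbered 72 and 57 from 20 fragments, 6 and 1 from 200, and 2 and 1 past a log2 ratio of 1. The number of features tested differs with the minimum. No share over all features stands beside these and the following counts, so they do not compare with the counts given earlier. Peaks numbered 8 and 1 from 200 fragments and 8 and 2 past 1. Hematopoietic partners above the limit were 0 from 500 fragments, over gene bodies and past 0.5. Tissue-restricted partners above were 3 from 500 fragments and 1 past 0.5, and below were 2 from 20 fragments and 1 over gene bodies. Lymphoid targets above were 1 over gene bodies and 1 past 0.5, and below were 6 from 20 fragments, 1 from 500 and 1 past 0.5. BMP and TGF-beta genes below were 1 with scaling to all nuclear fragments. Peaks with an E-box in the central 100 bp had a median -0.010 from that of all distal peaks. Scaling to all nuclear fragments or to promoters shifted all ratios by -0.03 and 0.05. Counting a fragment by any base in place of an end gave the same promoter and gene body ratios for all 6 genes, since it can add only fragments that span the whole region, so this alternative says little about stability.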
